A study of Mus musculus with 15 samples.

Results

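The forkhead genes encode a family of transcription factors that share a DNA-binding domain of the winged helix type, and mouse genes of the family are named Fox with a letter and a number. All protein-coding genes whose symbol was Fox, a letter from a to s and 1 or 2 digits were taken, which gave 44 of the 36528 gene identifiers listed in each library, or of the 21271 that matched a protein-coding gene. The rule uses no measured value. The family is known in skin for hair follicle and epidermal differentiation, for the quiescence of hair follicle stem cells and for cell division, and several members are induced by Hedgehog signalling in the mesenchyme of other organs. Hedgehog signals reach the nucleus when Patched, the product of Ptch1, no longer holds back Smoothened, and Gli transcription factors then switch on their targets.

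RNA was sequenced from 15 libraries of laser-captured nests of murine basal cell carcinoma. All 15 came from frozen skin of mice with K14Cre-ER, Ptch1fl/fl, p53fl/fl and Lgr5GFP, so every group carried the same floxed alleles of the Hedgehog receptor and of p53, and the keratin 14 promoter restricts Cre to epithelial cells that use it. The first group held 5 libraries of residual nests of mice given vismodegib, a Smoothened inhibitor, for 28 days. The second held 5 libraries of untreated nests negative for Ki67, a protein of dividing cells, and the third held 5 libraries of untreated nests positive for Ki67. The labels used here give no age, sex, animal, run or replicate number. Libraries are numbered within a group only to name them. Nests of a group may come from the same animal, in which case the p-values are too small, and the spread may be partly technical. A difference in how the Ki67-negative libraries were made, if there was one, cannot be told apart from the group.

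Depth was 6413055 to 10328822 counts in vismodegib libraries, 4887381 to 7158143 in Ki67-negative libraries and 4929869 to 8359195 in Ki67-positive libraries. Levels of a gene across libraries are given as CPM, the usual unit of a count relative to the total of its library. The summed level of 7 keratinocyte markers was 12560 to 16100 CPM after vismodegib, 5172 to 8840 CPM in Ki67-negative nests and 7030 to 8702 CPM in Ki67-positive nests, and none of the 7 was at 0. Gli1, a direct Hedgehog target, averaged 75.6 ± 48.1 CPM after vismodegib, 385 ± 127 CPM in Ki67-negative nests and 340 ± 131 CPM in Ki67-positive nests (SD, n = 5 each). Of 12 Hedgehog targets, 1 was higher and 9 lower after vismodegib against Ki67-positive nests, and 1 higher and 7 lower against Ki67-negative nests. Ki67-negative library 5 stood apart with 19669 genes detected, where the other 14 libraries had 21653 to 23322. It was the highest of its group for 10 of the 24 forkhead genes tested and the lowest for 7, which was not particular to it. Vismodegib library 3 was also the highest of its group for 10, and Ki67-negative library 3 was the lowest for 9. Xist, which is transcribed in female cells, exceeded the Y-linked Ddx3y in 3 of 5 vismodegib libraries, 1 of 5 Ki67-negative and 1 of 5 Ki67-positive libraries, and a term for these libraries in the fit ended 3 forkhead calls, of Foxd1, Foxj2 and Foxm1, each in 1 comparison.

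Of the 44 genes, 24 reached 10 counts in 5 or more libraries, and the same 24 passed the filter for testing. They were Foxc1, Foxc2, Foxd1, Foxd2, Foxh1, Foxi3, Foxj2, Foxj3, Foxk1, Foxk2, Foxl1, Foxm1, Foxn1, Foxn2, Foxn3, Foxo1, Foxo3, Foxo4, Foxo6, Foxp1, Foxp2, Foxp3, Foxp4 and Foxq1. Another 14 had at least 1 count, and 6 had none, among them Foxa1 and Foxa2, which act in endoderm. A sum of 0 among the 105541861 counts of all libraries allows a level of up to 0.0284 CPM, for counting error only. Foxl1 reached 10 counts in 0 of 5 vismodegib libraries, 4 of 5 Ki67-negative libraries and 4 of 5 Ki67-positive libraries, and Foxd2 in 0, 3 and 5. Such genes entered the test through the groups in which they were high and had to differ, so the share of tested genes that were called is a description only.

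Levels between genes were compared on the deposited values, which are RPKM, read counts scaled for gene length and depth, divided by a size factor per library (nRPKM). Over all libraries 14 members averaged above 1 nRPKM. Foxi3 was the highest, at 18.4 nRPKM, followed by Foxc1 at 17.0, Foxp1 at 10.9, Foxn3 at 10.7, Foxo1 at 10.04 and Foxo3 at 7.71 nRPKM. The order differed by group. After vismodegib Foxc1 came first with 23.0 ± 5.47 nRPKM and Foxn3 second with 17.9 ± 3.51, which do not differ beyond their spread. In Ki67-negative nests Foxi3 came first with 22.2 ± 10.8 nRPKM and Foxc1 second with 15.6 ± 7.22, and in Ki67-positive nests Foxi3 had 19.5 ± 8.24 and Foxc1 12.6 ± 3.16 nRPKM (SD, n = 5 each). These 2 genes did not differ beyond their spread in either untreated group. Spread here is between libraries, and differences between genes within a library were not computed. Foxn3 stood at 7.13 ± 0.77 nRPKM in Ki67-negative nests and 7.10 ± 1.73 nRPKM in Ki67-positive nests. The summed family was 2183 to 2636 CPM after vismodegib, 1751 to 2601 CPM in Ki67-negative nests and 1725 to 2051 CPM in Ki67-positive nests. Without Ki67-negative library 5 the Ki67-negative range was 1751 to 2128 CPM, below every vismodegib library. In reads, without regard to gene length, Foxn3 made up 353 of the 651 CPM by which the mean sum after vismodegib exceeded that of Ki67-positive nests.

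**Figure D1:**
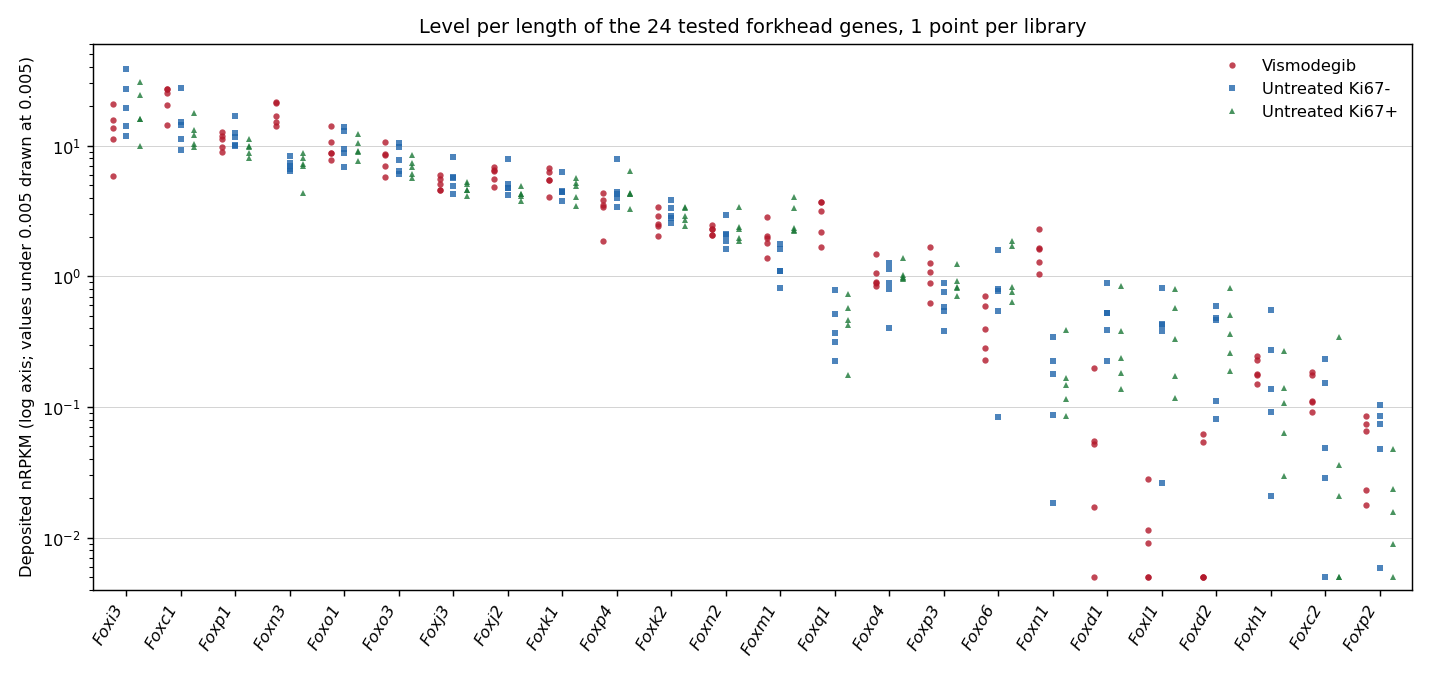
Deposited nRPKM (log axis, values under 0.005 drawn at 0.005) of the 24 tested forkhead genes, ordered by mean, with 1 point per library and vismodegib left of untreated Ki67-negative and Ki67-positive nests within each gene. Foxi3 and Foxc1 have the highest means, and the vismodegib points of Foxn3, Foxq1 and Foxn1 lie above their untreated points.

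Set against Ki67-positive nests, 5 of the 24 tested genes were higher after vismodegib (Foxc1, Foxj2, Foxn1, Foxn3 and Foxq1) and 3 were lower (Foxd1, Foxd2 and Foxl1), at an adjusted p under 0.05 in edgeR's quasi-likelihood test over 17282 genes. Of all genes tested 26.0% were called in this comparison, 12.6% higher and 13.4% lower. Set against Ki67-negative nests, 5 were higher (Foxm1, Foxn1, Foxn3, Foxp3 and Foxq1) and the 3 lower genes were again Foxd1, Foxd2 and Foxl1, where 31.9% of all genes were called. In each comparison 8 of 24 is 33.3%, near the share of all genes. In each comparison the groups did not overlap for 3 higher and 2 lower genes of the family. Over all genes, groups without overlap made up 20.3% against Ki67-positive nests (10.2% higher, 10.1% lower) and 20.5% against Ki67-negative nests (10.4% higher, 10.2% lower). Both comparisons use the same 5 vismodegib libraries and are not independent. The median log2 fold change of the 24 genes was 0.17 against Ki67-positive and 0.00 against Ki67-negative nests, beside -0.02 and -0.03 for all genes.

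**Figure D2:**
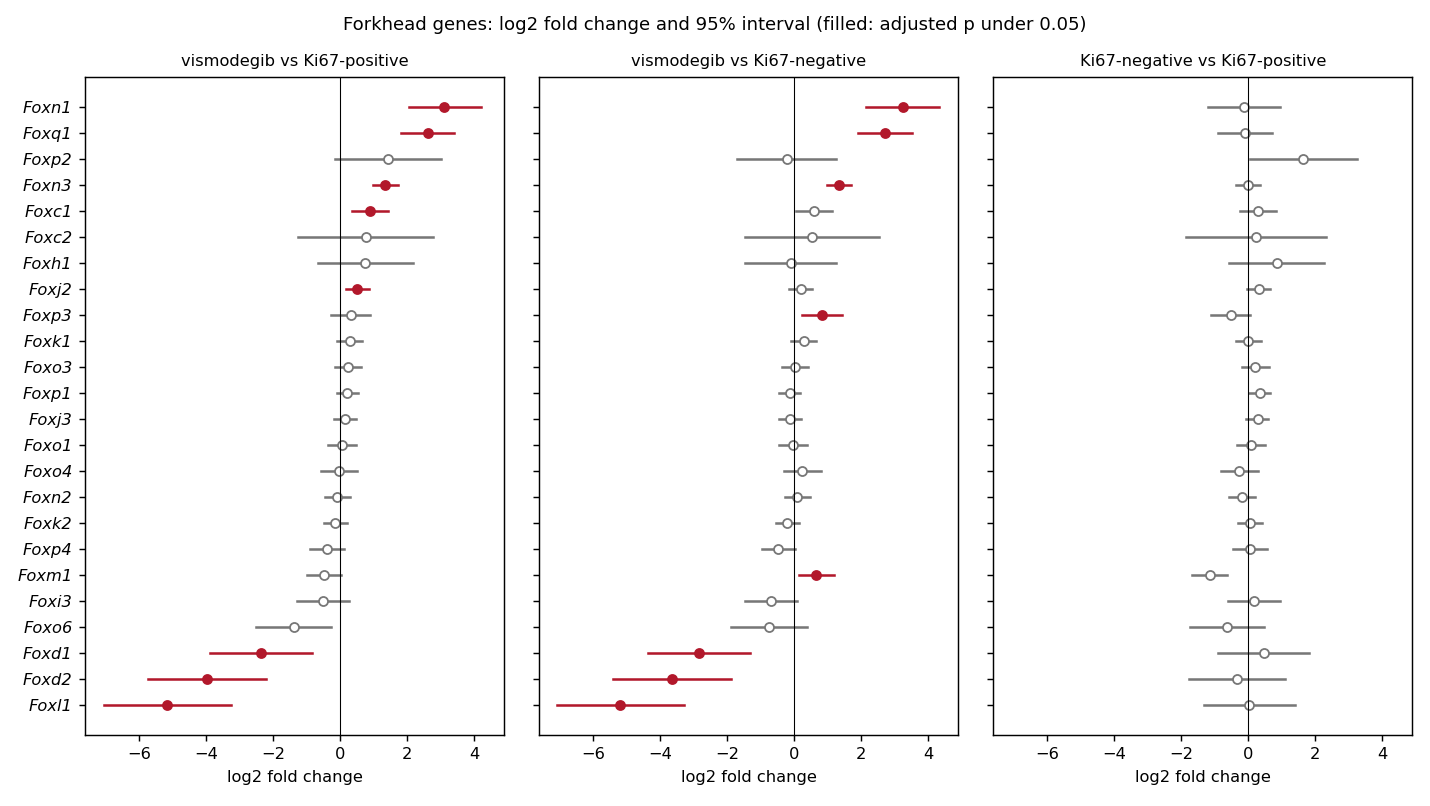
Log2 fold change with its 95% interval (x axis) for each of the 24 tested forkhead genes (rows), in 1 panel per comparison, with filled points for an adjusted p under 0.05. Foxn1 and Foxq1 lie farthest right and Foxl1, Foxd2 and Foxd1 farthest left in both vismodegib panels, and no point is filled for Ki67-negative against Ki67-positive nests.

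The largest rises were in Foxn1 and Foxq1, both known for hair and skin differentiation. Foxn1 is the gene mutated in nude mice, where hair shafts and thymic epithelium fail, and it drives the early differentiation of keratinocytes. Foxn1 had 27.9, 21.8, 27.5, 17.1 and 39.0 CPM in vismodegib libraries, 1.45, 2.97, 3.64, 5.74 and 0.299 CPM in Ki67-negative libraries and 2.76, 2.41, 6.53, 1.94 and 1.42 CPM in Ki67-positive libraries. Every vismodegib library was above every untreated one. The log2 fold change was 3.11 (SE 0.51, edgeR adjusted p = 0.000194) against Ki67-positive and 3.24 (SE 0.52, adjusted p = 0.000135) against Ki67-negative nests.

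Foxq1 is the gene mutated in satin mice, whose hair medulla is defective. It had 22.5, 17.2, 38.2, 37.3 and 32.5 CPM in vismodegib libraries, 3.23, 8.07, 3.64, 5.28 and 2.24 CPM in Ki67-negative libraries and 4.30, 1.77, 5.82, 7.43 and 4.65 CPM in Ki67-positive libraries. Here too the lowest vismodegib library exceeded the highest untreated one. The log2 fold change was 2.61 (SE 0.38, edgeR adjusted p = 5.83e-05) against Ki67-positive and 2.71 (SE 0.38, adjusted p = 3.80e-05) against Ki67-negative nests. In GENCODE, whose model of Foxq1 is longer than the RefSeq one, Foxq1 overlaps A530084C06Rik on the opposite strand over 3200 bases, and the use of strand in counting is not given in the sources used here.

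Foxn3, a transcriptional repressor linked to the cell cycle checkpoint, also rose in both comparisons. It had 500.4, 701, 461, 696 and 556 CPM in vismodegib libraries, 238, 271, 201, 214 and 222 CPM in Ki67-negative libraries and 226, 138, 289, 263 and 233 CPM in Ki67-positive libraries. All vismodegib libraries were above all untreated ones. The log2 fold change was 1.34 (SE 0.18, edgeR adjusted p = 2.19e-05) against Ki67-positive and 1.35 (SE 0.18, adjusted p = 1.79e-05) against Ki67-negative nests, which is 2.54-fold in each. The antisense gene 3300002A11Rik, which overlaps it, averaged 13.4 CPM after vismodegib, 7.64 CPM in Ki67-negative and 7.40 CPM in Ki67-positive nests, and was higher by a log2 fold change of 0.85 against Ki67-positive and 0.81 against Ki67-negative nests.

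Foxc1 holds hair follicle stem cells in quiescence in mice. It had 302, 212, 399, 387 and 372 CPM in vismodegib libraries, 219, 208, 130.5, 163 and 392.5 CPM in Ki67-negative libraries and 191, 147, 177, 141 and 252 CPM in Ki67-positive libraries, and both untreated groups overlapped vismodegib. It rose by a log2 fold change of 0.88 (SE 0.26, edgeR adjusted p = 0.0169) against Ki67-positive nests. Against Ki67-negative nests it was 0.59 (SE 0.26, adjusted p = 0.0884), and without Ki67-negative library 5 it was 0.89 (adjusted p = 0.00431).

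Foxj2, a broadly expressed activator, had 102, 119, 118, 86.3 and 126 CPM in vismodegib libraries, 86.8, 93.1, 73.5, 86.5 and 141 CPM in Ki67-negative libraries and 74.6, 87.6, 78.5, 77.8 and 67.5 CPM in Ki67-positive libraries. The vismodegib libraries overlapped both untreated groups. It rose against Ki67-positive nests by 0.51 (SE 0.16, edgeR adjusted p = 0.0257), a call lost without vismodegib library 3 (0.0573) or 5 (0.0654), without Ki67-positive library 5 (0.0629) or with a term for Xist-high libraries (0.0752). Against Ki67-negative nests it was 0.20 (adjusted p = 0.375), and 0.38 without Ki67-negative library 5 (adjusted p = 0.041).

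**Figure D3:**
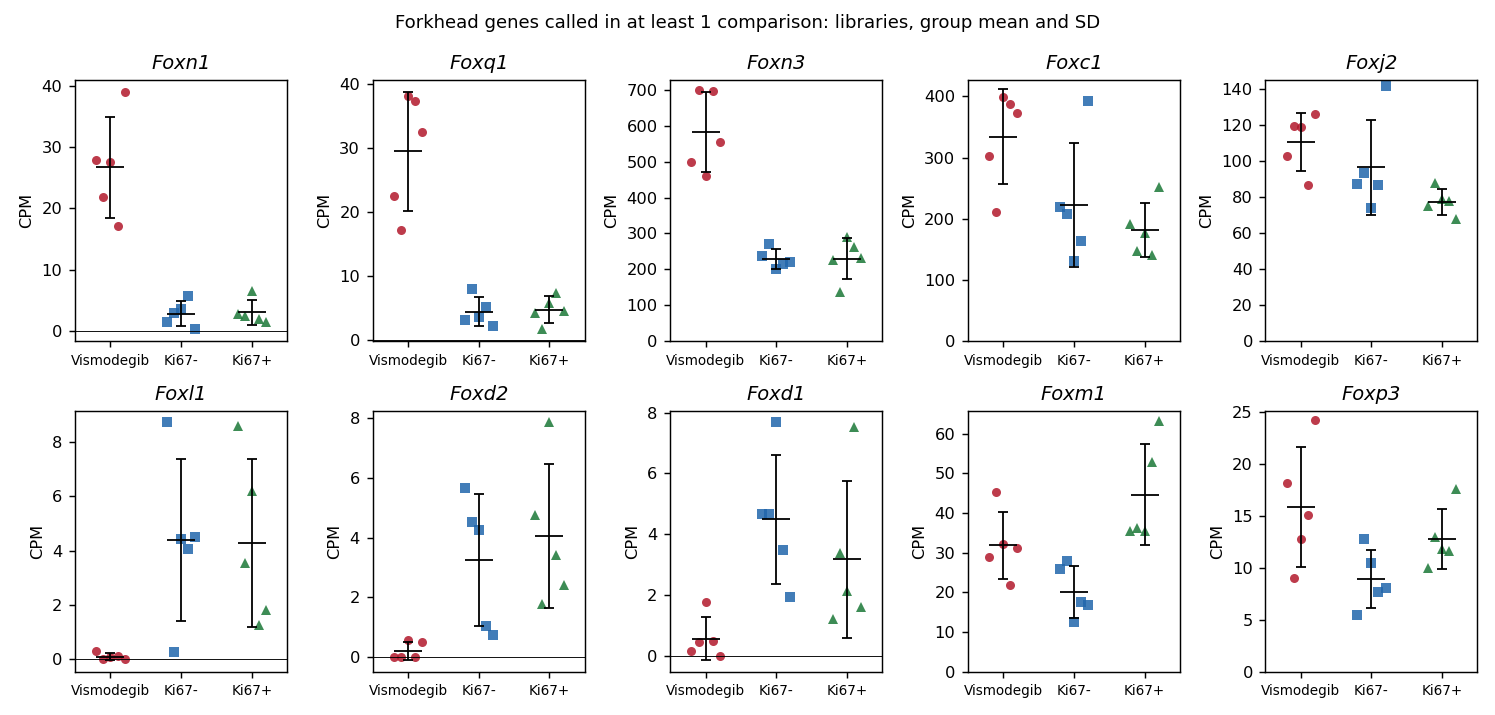
CPM per library (points) with group mean and SD (bars) of the 10 forkhead genes called in at least 1 comparison, in vismodegib, Ki67-negative and Ki67-positive nests from left to right, 5 libraries each. All vismodegib points of Foxn1, Foxq1 and Foxn3 lie above all untreated points, and those of Foxl1, Foxd2 and Foxd1 lie below 2 CPM.

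Promoters are shown as examples for 4 of the genes that moved, 2 that rose and 2 that fell. Promoter sequences from RefSeq matched 28 of the 44 genes, as 250 bases before and 50 from the start on GRCm38.p6. The windows are chr11:78386559-78386858 for Foxn1 and chr12:99450025-99450324 for Foxn3, both on the minus strand and at a start inside the RefSeq gene. For Foxd1 the window is chr13:98353995-98354294 (plus strand) and for Foxd2 chr4:114908849-114909148 (minus strand). Capitals mark a match to a motif searched on both strands.
Foxn1: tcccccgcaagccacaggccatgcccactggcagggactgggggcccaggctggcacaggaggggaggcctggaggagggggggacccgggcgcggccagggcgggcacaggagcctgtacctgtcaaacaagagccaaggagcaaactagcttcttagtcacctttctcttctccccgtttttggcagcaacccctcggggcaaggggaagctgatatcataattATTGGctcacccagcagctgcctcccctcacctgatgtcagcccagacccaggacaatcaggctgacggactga
Foxn3: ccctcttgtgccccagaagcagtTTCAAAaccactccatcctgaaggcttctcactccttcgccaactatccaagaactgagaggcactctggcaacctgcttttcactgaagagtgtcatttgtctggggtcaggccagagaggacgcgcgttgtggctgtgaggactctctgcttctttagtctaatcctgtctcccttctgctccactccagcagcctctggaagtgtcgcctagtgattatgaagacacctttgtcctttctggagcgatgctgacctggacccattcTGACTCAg
Foxd1: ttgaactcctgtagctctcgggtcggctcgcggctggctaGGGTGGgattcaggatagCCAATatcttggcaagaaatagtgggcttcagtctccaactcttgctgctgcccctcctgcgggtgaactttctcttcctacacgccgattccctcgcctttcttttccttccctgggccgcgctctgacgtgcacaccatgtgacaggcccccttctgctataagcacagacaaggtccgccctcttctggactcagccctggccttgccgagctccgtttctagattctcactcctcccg
Foxd2: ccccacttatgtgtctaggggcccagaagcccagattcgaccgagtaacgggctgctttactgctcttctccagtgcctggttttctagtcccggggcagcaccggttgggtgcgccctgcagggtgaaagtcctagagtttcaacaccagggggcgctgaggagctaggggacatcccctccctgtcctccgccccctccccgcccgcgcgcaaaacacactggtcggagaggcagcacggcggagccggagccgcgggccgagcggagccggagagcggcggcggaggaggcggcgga

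The motifs searched were GACCACCCA (Gli), CCACCC (its core, contained in it), TGTTTAC and TGTTTGC (forkhead), TGANTCA (AP-1), TTTGAA (the cell cycle element), CCAAT and TATAAA. Of 32851 promoters of the same length, 0.25% held GACCACCCA, 31.5% CCACCC, 3.65% TGTTTAC, 5.07% TGTTTGC, 7.81% TGANTCA, 17.9% TTTGAA, 37.4% CCAAT and 13.6% TATAAA. Foxn1 held CCAAT on the minus strand 24 bases before the start. Foxn3 held TGANTCA 42 bases after its start and TTTGAA on the minus strand 227 bases before it. Foxd1 held CCACCC on the minus strand 210 bases before the start and CCAAT 192 bases before it, and Foxd2 held none of the 8. The called genes Foxc1, Foxj2 and Foxp3, each higher in 1 vismodegib comparison, also have promoter entries, not printed here. Foxj2 held CCACCC 16 bases before its start. Foxp3 held it 129 bases before the start in chrX:7579426-7579725, and Foxc1 did not hold it. CCACCC was thus not confined to a gene that fell. GC was 62.7% for Foxn1, 52.7% for Foxn3, 57.7% for Foxd1 and 67.7% for Foxd2, beside a median of 52.7% over all promoters.

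Genes linked to Foxn1 and Foxq1 in the hair shaft changed in both directions. Of 17 listed, 7 were tested, and 2 were higher and 4 lower after vismodegib against Ki67-positive, with 2 higher and 2 lower against Ki67-negative nests. Hoxc13, a homeobox gene upstream of Foxn1 and Foxq1 in mouse hair, had 3.08, 0.474, 2.57, 5.35 and 7.20 CPM in vismodegib libraries, 97.0, 54.3, 47.5, 30.2 and 76.1 CPM in Ki67-negative libraries and 36.7, 34.4, 128, 92.0 and 57.6 CPM in Ki67-positive libraries. It was lower in every vismodegib library, by a log2 fold change of -4.20 (SE 0.54, edgeR adjusted p = 4.39e-05) against Ki67-positive and -4.01 (adjusted p = 5.42e-05) against Ki67-negative nests. Lef1, a Wnt effector of the hair matrix, was lower, at -1.93 against Ki67-positive and -2.34 against Ki67-negative nests. In the same order Krt32, a hair keratin, was higher at 5.22 and 6.44, and Ovol1, a regulator of epidermal differentiation, at 2.18 and 2.41. Krt32 was the only hair keratin tested. The others matched, named after their values were seen, were Krt31, Krt33a, Krt34, Krt35, Krt36, Krt81, Krt82, Krt83 and Krt86. Each averaged at most 1.43 CPM in every group. Among 14 epidermal differentiation genes 11 were higher and 1 lower in each vismodegib comparison, among them Krt77, a suprabasal keratin, at 7.64 and 8.82, and Lor, a cornified envelope protein, at 6.61 and 6.74. Among 15 tested regulators of hair follicle stem cells 1 was higher and 8 lower against Ki67-positive, and 1 higher and 9 lower against Ki67-negative nests, with Lhx2 at -3.12 and -3.24 and Tcf7l1 at -2.74 and -2.30.

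**Figure D4:**
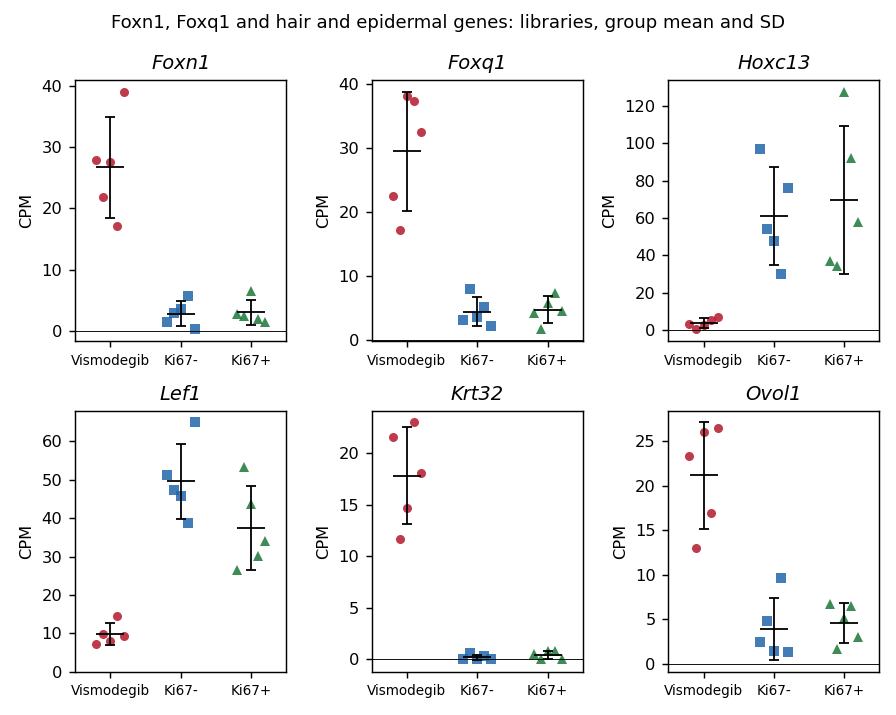
CPM per library (points) with group mean and SD (bars) of Foxn1, Foxq1, Hoxc13, Lef1, Krt32 and Ovol1, in vismodegib, Ki67-negative and Ki67-positive nests from left to right, 5 libraries each. All vismodegib points of Foxn1, Foxq1, Krt32 and Ovol1 lie above the untreated points, and those of Hoxc13 and Lef1 lie below them.

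Foxl1, Foxd1 and Foxd2 are known from embryonic mesenchyme. In mice Foxl1 is expressed under the gut epithelium and is a Hedgehog target there, and Foxd1 marks stromal and dermal fibroblast precursors. Foxl1 had 0.308, 0, 0.0990, 0.122 and 0 CPM in vismodegib libraries, 8.71, 0.283, 4.44, 4.08 and 4.49 CPM in Ki67-negative libraries and 8.60, 3.54, 6.18, 1.26 and 1.82 CPM in Ki67-positive libraries. Vismodegib library 1 was above Ki67-negative library 2, and the vismodegib libraries were below every Ki67-positive one. These values are 4 counts after vismodegib, 135 in Ki67-negative and 150 in Ki67-positive nests. The log2 fold change was -5.15 (SE 0.90, edgeR adjusted p = 0.000348) against Ki67-positive and -5.18 (SE 0.90, adjusted p = 0.000297) against Ki67-negative nests. Without vismodegib library 1 these were -5.77 and -5.81.

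Foxd2 had 0, 0, 0.594, 0 and 0.524 CPM in vismodegib libraries, 5.65, 4.53, 4.24, 1.06 and 0.748 CPM in Ki67-negative libraries and 4.76, 1.77, 7.84, 3.43 and 2.43 CPM in Ki67-positive libraries. In CPM the vismodegib libraries overlapped neither untreated group. The values of Foxd2 are 10 counts after vismodegib, 100 in Ki67-negative and 150 in Ki67-positive nests. Vismodegib library 3 (0.594 CPM) had 6 counts and Ki67-negative library 5 (0.748 CPM) had 5, so that separation rests on the scaling for depth. The log2 fold change was -3.97 (SE 0.83, edgeR adjusted p = 0.00166) against Ki67-positive and -3.64 (SE 0.83, adjusted p = 0.00292) against Ki67-negative nests. Foxd1 had 0.154, 0.474, 1.78, 0.486 and 0 CPM in vismodegib libraries, 4.68, 4.67, 7.67, 3.47 and 1.95 CPM in Ki67-negative libraries and 1.23, 3.38, 2.14, 7.54 and 1.62 CPM in Ki67-positive libraries. Its vismodegib library 3 overlapped the Ki67-positive libraries and no Ki67-negative one. The log2 fold change was -2.36 (SE 0.72, edgeR adjusted p = 0.0206) against Ki67-positive and -2.83 (SE 0.72, adjusted p = 0.00616) against Ki67-negative nests. Without vismodegib library 3, Foxd1 was -3.44 and -3.91 and Foxd2 -4.71 and -4.38. Against Ki67-positive nests the Foxd1 call did not hold when vismodegib library 1 (adjusted p = 0.0524) or Ki67-positive library 4 (log2 fold change -1.75, adjusted p = 0.0933) was left out, or with a term for Xist-high libraries (0.0723).

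In laser-captured bulk RNA, fewer cells of a type and less RNA per cell cannot be told apart. Of 10 pericyte and smooth muscle markers 7 were lower after vismodegib in each comparison, with summed levels of 165 to 284 CPM after vismodegib, 770 to 1155 CPM in Ki67-negative and 690 to 1039 CPM in Ki67-positive nests. Most of that gap lay in Cspg4, a proteoglycan of pericytes, which was lower by a log2 fold change of -2.72 against Ki67-positive and -3.05 against Ki67-negative nests, and in Mcam, an adhesion molecule of pericytes, which was lower by -3.41 and -3.13. Without both, left out after their values were seen, the sums were 101 to 185 CPM after vismodegib, 199 to 280 CPM in Ki67-negative and 170 to 255 CPM in Ki67-positive nests, so that vismodegib overlapped Ki67-positive nests. Named after their values were seen, Kcnj8 (-2.66 and -3.05), Acta2 (-1.81 and -1.55), Tagln (-0.94 and -1.11), Pdgfrb (-1.41 and -1.72) and Abcc9 (-1.19 and -1.71) were also called lower against Ki67-positive and Ki67-negative nests. The 3 markers that were not called, named likewise, had log2 fold changes of 0.17 and 0.09 (Rgs5), 0.24 and 0.02 (Myh11) and 0.72 and 0.63 (Notch3) in the same order. Notch3 averaged 97.7 CPM after vismodegib, 62.9 CPM in Ki67-negative and 59.1 CPM in Ki67-positive nests, within mean sums without Cspg4 and Mcam of 156, 238 and 207 CPM. Of 10 fibroblast markers 4 were lower against Ki67-positive and 3 against Ki67-negative nests, with sums of 418 to 3565 CPM after vismodegib, 2468 to 4618 CPM in Ki67-negative and 1655 to 5786 CPM in Ki67-positive nests. Endothelial markers had 0 of 8 called in either comparison. No marker of these 3 lists was at 0 in all libraries of a group. The part of these cells in the values of Foxl1, Foxd1 and Foxd2 was not tested.

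Foxl1 and Foxq1 each lie near other forkhead genes. On chromosome 8, Foxf1 (chr8:121084386-121088154), Foxc2 (chr8:121116171-121118895) and Foxl1 (chr8:121127685-121130644) lie in a row, with 28.0 and 8.8 kb between them. Foxc2, which acts in lymphatic vessels, averaged 1.33 CPM after vismodegib, 0.904 CPM in Ki67-negative and 0.787 CPM in Ki67-positive nests and was not called. Foxf1, a Hedgehog target in lung and gut mesenchyme, had 49 counts in all and was not tested. On chromosome 13, Foxq1 (chr13:31558170-31560976) lies 64.8 kb from Foxf2 and Foxf2 175.2 kb from Foxc1 (chr13:31806646-31810635). Foxf2 had 10 counts in all, 0 of them after vismodegib, and was not tested. Foxc1 was called against Ki67-positive nests, as given above. Foxl1, Foxc2 and Foxf1 all overlap the readthrough model Gm20388.

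Foxe1 was at 0 counts in all 5 vismodegib libraries, which allows up to 0.0754 CPM. It had 0, 2, 3, 4 and 0 counts in Ki67-negative and 0, 0, 6, 3 and 0 counts in Ki67-positive libraries, too few to test. In human basal cell carcinoma it is known as a target of the Gli2 factor. Foxs1, known from pericytes, had 4 counts after vismodegib, 2 in Ki67-negative and 14 in Ki67-positive nests. Foxd3, a neural crest factor, had 11 counts after vismodegib, 17 in Ki67-negative and 48 in Ki67-positive nests, and Foxj1, the switch of motile cilia, had 4, 1 and 3. Melanocyte and Schwann cell markers, cells of neural crest origin, summed to 227 to 550 CPM after vismodegib, 313 to 1350 CPM in Ki67-negative and 457 to 1663 CPM in Ki67-positive nests. Of 10 tested, 0 were higher and 4 lower against Ki67-positive nests, and 1 higher and 4 lower against Ki67-negative nests. Their part in the counts of Foxd3 was not tested. Foxa3 had 47 counts over all libraries, and Foxd4, Foxe3, Foxi1, Foxl2, Foxn4, Foxr1 and Foxr2 had 1 to 4.

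Foxm1 drives the transcription of mitotic genes together with the MuvB complex. It had 28.8, 45.2, 32.3, 21.8 and 31.3 CPM in vismodegib libraries, 25.8, 27.9, 12.5, 17.5 and 16.9 CPM in Ki67-negative libraries and 35.6, 36.3, 35.4, 52.8 and 63.3 CPM in Ki67-positive libraries. Vismodegib nests overlapped both untreated groups, and every Ki67-negative library was below every Ki67-positive one. Since the untreated nests were grouped by Ki67, a difference in mitotic genes between them is tied to that grouping. The vismodegib nests carry no Ki67 label. Differences in mitotic genes between them and either untreated group therefore depend on the grouping too, and cannot be told apart from a change with treatment.

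Foxm1 was higher in vismodegib than in Ki67-negative nests by a log2 fold change of 0.66 (SE 0.25, edgeR adjusted p = 0.0496). This call was lost in 15 of 22 alternatives, including limma-voom, the term for Xist-high libraries (0.51, adjusted p = 0.15) and 11 of the 15 that leave out 1 library (0.60, adjusted p = 0.0937, without Ki67-negative library 5). Against Ki67-positive nests it was -0.49 (SE 0.24, adjusted p = 0.153). Between Ki67-negative and Ki67-positive nests it was -1.15 (SE 0.25, adjusted p = 0.0857, unadjusted p = 0.000213). In that comparison edgeR called 0 of the 24 genes, where 0.174% of all genes were called. Groups did not overlap for 1 of the 24, Foxm1, beside 1.17% of all genes (0.845% lower). In edgeR 3 genes had an unadjusted p under 0.05: Foxm1, Foxp1 and Foxp2. DESeq2 called 1, Foxm1 (adjusted p = 0.00332), as did edgeR with no filter (adjusted p = 0.0477), and limma-voom called 0.

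Of 22 mitotic genes known to follow Foxm1 and MuvB, 0 were higher and 3 lower after vismodegib against Ki67-positive nests, and 13 were higher and 0 lower against Ki67-negative nests. The 13 became 8 with the term for Xist-high libraries, without vismodegib library 2 or without Ki67-negative library 3. The 3 became 6 with that term, 1 without vismodegib library 5 and 0 without Ki67-positive library 5. Between Ki67-negative and Ki67-positive nests 6 were lower, a count that was 15 with DESeq2, and 0 when any of Ki67-negative libraries 2 to 5, or Ki67-positive library 4 or 5, was left out. The 22 genes summed to 1260 to 1885 CPM after vismodegib, 558 to 1010 CPM in Ki67-negative and 1440 to 2784 CPM in Ki67-positive nests, so vismodegib lay above all Ki67-negative libraries and overlapped the Ki67-positive ones. Mki67, which encodes Ki67 and is itself among these 22 genes, averaged 683 ± 142 CPM after vismodegib, 361 ± 74.5 CPM in Ki67-negative and 776 ± 228 CPM in Ki67-positive nests (SD, n = 5 each). The mean sums that include it were 1545, 844 and 1919 CPM in the same order, so the gene of the grouping makes up much of each sum. Mki67 was higher after vismodegib than in Ki67-negative nests by a log2 fold change of 0.92 (SE 0.20, edgeR adjusted p = 0.00189). That comparison too depends on the Ki67 grouping of the untreated nests. Birc5, which encodes survivin, fell against Ki67-positive nests with a log2 fold change of -1.17 (SE 0.33, edgeR adjusted p = 0.0142) and was not called against Ki67-negative nests (0.31, adjusted p = 0.517). Of 13 MuvB and E2F partners, 2 were higher and 1 lower against Ki67-positive and 3 higher and 0 lower against Ki67-negative nests.

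**Figure D5:**
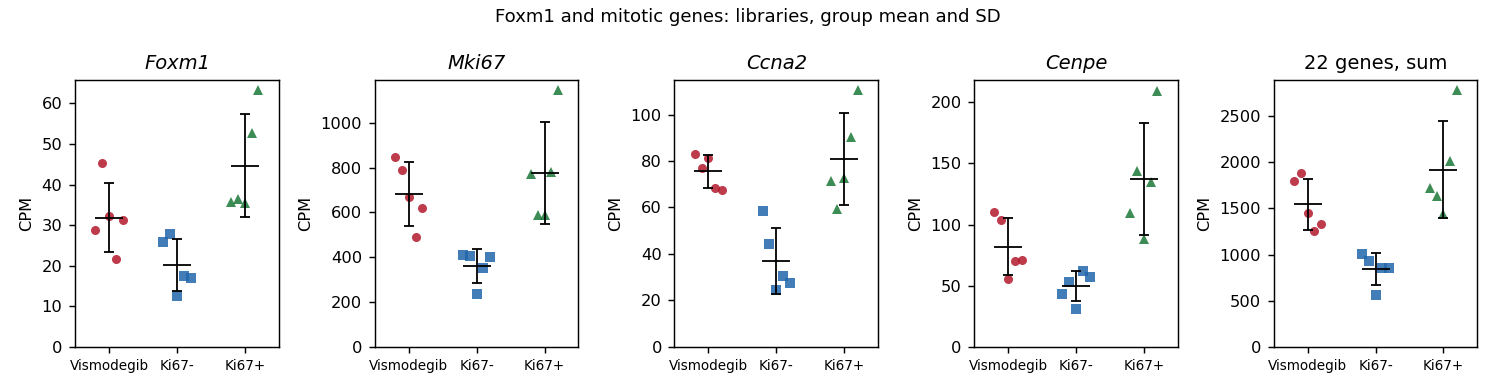
CPM per library (points) with group mean and SD (bars) of Foxm1, Mki67, Ccna2, Cenpe and the sum of 22 mitotic genes, in vismodegib, Ki67-negative and Ki67-positive nests from left to right, 5 libraries each. The sum includes Mki67, Ccna2 and Cenpe. In each panel the Ki67-negative libraries lie below every Ki67-positive library, and the vismodegib libraries overlap the Ki67-positive ones.

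Foxo factors are held out of the nucleus when Akt phosphorylates them, which mRNA does not show. Foxo1, Foxo3 and Foxo4 were not called in any comparison. Foxo1 was 0.06 (95% interval -0.36 to 0.48) against Ki67-positive and -0.03 (-0.45 to 0.39) against Ki67-negative nests on the log2 scale, Foxo3 0.24 (-0.14 to 0.63) and 0.02 (-0.36 to 0.41), and Foxo4 -0.03 (-0.57 to 0.51) and 0.24 (-0.31 to 0.79). Foxo6 had 2.62, 5.53, 6.53, 2.07 and 3.67 CPM in vismodegib libraries, 14.7, 7.08, 7.07, 4.98 and 0.748 CPM in Ki67-negative libraries and 7.52, 5.79, 17.2, 15.7 and 6.88 CPM in Ki67-positive libraries. All groups overlapped. Against Ki67-positive nests it was -1.38 (SE 0.53, edgeR adjusted p = 0.066), a value called by DESeq2 (0.0361), in the fit of the 2 groups alone (0.0198) and without Ki67-negative library 5 (0.0172). Of 18 Foxo target genes 5 were higher and 4 lower against Ki67-positive and 3 higher and 4 lower against Ki67-negative nests, with Fbxo32, a ubiquitin ligase, at 1.24 and 1.08 and Gadd45a, a growth arrest gene, at -1.94 and -1.95.

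Foxp3 marks regulatory T cells. It had 18.2, 9.01, 12.8, 15.1 and 24.2 CPM in vismodegib libraries, 5.49, 12.7, 10.5, 7.70 and 8.08 CPM in Ki67-negative libraries and 9.98, 13.0, 11.9, 11.7 and 17.6 CPM in Ki67-positive libraries, and the groups overlapped. It rose against Ki67-negative nests by a log2 fold change of 0.83 (SE 0.28, edgeR adjusted p = 0.0321). The call was lost in 6 of 22 alternatives, without vismodegib library 1 (0.0681) or 5 (0.108), without Ki67-negative library 1 (0.0774), 4 (0.0598) or 5 (0.0543), and in the fit of the 2 groups alone (0.0565). Against Ki67-positive nests it was 0.31 (adjusted p = 0.453). The T cell markers summed to 248 to 393 CPM after vismodegib, 75.0 to 180 CPM in Ki67-negative and 86.7 to 141 CPM in Ki67-positive nests, with 5 of 8 tested higher against Ki67-positive, 3 higher against Ki67-negative nests and 0 lower, and none at 0. The first of these counts was 3 with the term for Xist-high libraries. Ikzf2, a transcription factor of regulatory T cells, made up much of these sums, with 210 ± 54.1 CPM after vismodegib, 39.9 ± 8.22 CPM in Ki67-negative and 34.0 ± 7.46 CPM in Ki67-positive nests (SD, n = 5 each). Without Ikzf2, left out after its values were seen, the sums were 70.5 to 181 CPM after vismodegib, 41.8 to 144 CPM in Ki67-negative and 58.1 to 102 CPM in Ki67-positive nests, and the groups overlapped. Il2ra, Icos and Tnfrsf18, named after their values were seen, were called in neither comparison. Tnfrsf18 averaged 41.85 CPM after vismodegib, 34.46 CPM in Ki67-negative and 40.98 CPM in Ki67-positive nests. Also named after their values were seen, Cd3d (log2 fold change 2.23), Cd3e (2.04), Cd3g (1.81) and Cd4 (1.72) were called higher against Ki67-positive nests. Against Ki67-negative nests Cd3e (1.69) and Cd3g (1.82) were called higher, and Cd3d (1.30) and Cd4 (1.12) were not called. Foxp3 itself averaged 15.85 CPM after vismodegib, 8.90 CPM in Ki67-negative and 12.8 CPM in Ki67-positive nests. In the same order Cd4 averaged 4.49, 2.06 and 1.37 CPM and Cd3d 5.50, 2.21 and 1.15 CPM, below Foxp3. Cd3g averaged 15.05, 4.23 and 4.30 CPM, and Cd3e 30.4, 9.32 and 7.41 CPM. Which cells the Foxp3 reads came from was not tested. Dendritic and myeloid markers summed to 976 to 2376 CPM after vismodegib, 163 to 514 CPM in Ki67-negative and 93.7 to 548 CPM in Ki67-positive nests. Their part in the value of Foxp3 was not tested. Foxp3 overlaps Ccdc22 on the opposite strand over 1437 bases, and Ccdc22 was not called (-0.05 against Ki67-positive and 0.39 against Ki67-negative nests). It also overlaps Ppp1r3f on the opposite strand, over 640 bases, and Ppp1r3f was lower after vismodegib, by a log2 fold change of -1.28 (edgeR adjusted p = 0.0367) against Ki67-positive and -1.53 (adjusted p = 0.0127) against Ki67-negative nests. The longer GENCODE model of Foxp3 further overlaps Gm36995 on the opposite strand over 21602 bases and Flicr on the same strand over 7384 bases. The counts of these 2 genes were not examined.

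Foxi3, a placode and hair regulator, had 25.9, 60.7, 69.2, 90.2 and 50.03 CPM in vismodegib libraries, 118, 62.2, 82.6, 52.2 and 165 CPM in Ki67-negative libraries and 43.3, 134, 108, 70.5 and 69.6 CPM in Ki67-positive libraries. The groups overlapped, and the log2 fold change was -0.52 (95% interval -1.29 to 0.25) against Ki67-positive and -0.70 (-1.47 to 0.08) against Ki67-negative nests, not called in either. Foxp1, which restrains hair follicle stem cells in mice, was 392 to 555 CPM after vismodegib, 431 to 716 CPM in Ki67-negative and 348 to 480 CPM in Ki67-positive nests, with a log2 fold change of 0.21 (-0.10 to 0.52) against Ki67-positive and -0.13 (-0.44 to 0.17) against Ki67-negative nests. Foxk1 and Foxk2, repressors of autophagy genes, Foxp4, a relative of Foxp1, Foxj3 and Foxn2 were not called in either comparison, with log2 fold changes of -0.47 to 0.28. Foxp2, known for speech in humans and song in birds, Foxh1, a partner of Smad proteins, and Foxc2 each averaged under 2 CPM in every group and were not called. Foxc2 against Ki67-positive nests was 0.76, and 3.09 without Ki67-positive library 1 (edgeR adjusted p = 0.0312).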

How the data were processed

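Each library has a deposited table of counts and RPKM values per NCBI gene identifier. Reads were aligned with GSNAP to GRCm38, per the submitters' processing notes, and the counts are uniquely aligning reads per gene model, per the file headers. The RPKM values were scaled by the authors with a size factor, per the file headers, and served only for levels between genes. For the aligner version, the annotation release and strand, no source used here says what was used.

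Symbols and coordinates come from RefSeq on GRCm38.p6, and 31049 of 36528 identifiers matched. Overlapping models come from GENCODE on GRCm38. Genes were kept by filterByExpr (minimum count 10, minimum total 15), leaving 17282. All 15 libraries entered 1 fit with TMM scaling and edgeR 4.0.16 (quasi-likelihood F test, robust, 12 residual degrees of freedom, R 4.3.3), two-sided, with Benjamini-Hochberg adjustment over all genes and a call at 0.05. The code was tested on simulated data. CPM uses the TMM-adjusted library size, and ± is the SD of 5 libraries. Alternatives were other scaling (RLE), filters, DESeq2, limma-voom (limma 3.58.1), fits of 2 groups, a term for libraries with Xist above Ddx3y, and leaving out each library. Members, lists and tests were chosen with earlier results of these data known. Genes named outside the family come from those lists, at most 4 a list by smallest adjusted p, with Gli1 and Mki67, or are overlapping models. Further genes of the lists were named after their values were seen and are marked so.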

Additional observations from a re-analysis of the deposited data

Results flagged for a closer look

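In 6 of 72 groups of 5 libraries examined, 1 library lay far above the others. For normally distributed values about 3.6 groups would hold a library far above or far below the others. CPM values, some of them near 0, need not follow that distribution, so 6 and 3.6 cannot be compared strictly. Foxc2 had 3.378 CPM in Ki67-positive library 1, where the other 4 had 0 to 0.356 CPM. Foxd1 had 1.781 CPM in vismodegib library 3, where the others had 0 to 0.486 CPM. Foxj2 had 141.2 CPM in Ki67-negative library 5, where the others had 73.5 to 93.1 CPM, and Foxp4 had 116.7 CPM in the same library, where the others had 51.8 to 67.2 CPM. Foxn1 had 6.534 CPM in Ki67-positive library 3, where the others had 1.42 to 2.76 CPM. Foxo4 had 25.48 CPM in Ki67-positive library 4, where the others had 17.2 to 18.7 CPM.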

How the results depend on the processing

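Of 1567 alternative values of single forkhead genes, 1484 were counted as unchanged, 28 lost a call, 10 gained one and 45 changed sign, each from a value that was not called. A value that rounded to 0 could not count as a change of sign, and a value without an adjusted p was counted as unchanged. Foxn1, Foxq1, Foxn3, Foxl1 and Foxd2 against both untreated groups, Foxc1 against Ki67-positive and Foxd1 against Ki67-negative nests were called in every alternative that tested them. Lower genes between Ki67-negative and Ki67-positive nests numbered 1 with no filter and 1 with DESeq2. Fits of the 2 groups alone gave 3 higher and 1 lower against Ki67-negative nests. Foxm1 (adjusted p = 0.0622) and Foxp3 (0.0565) missed the threshold there, and Foxl1 and Foxd2 did not pass the filter. The higher count ranged from 3 to 5 with a library left out. No paired analysis was possible because the labels give no replicate numbers. Low counts limit Foxl1, Foxd1, Foxd2, Foxc2, Foxp2 and Foxh1.

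Signs changed with the Xist term for Foxo4 against Ki67-positive (0.11) and Foxp2 (0.36) and Foxo1 (0.01) against Ki67-negative nests, and with limma-voom for Foxp2 (0.04) and Foxh1 (0.47) against Ki67-negative nests and Foxl1 between Ki67-negative and Ki67-positive nests (-0.25). The cause was not tested. With 1 library left out, log2 fold changes against Ki67-positive nests ranged from -0.19 to 0.09 for Foxo4, -0.09 to 0.17 for Foxo1 and -0.15 to 0.09 for Foxn2. Against Ki67-negative nests they ranged from -0.18 to 0.10 for Foxo1, -0.09 to 0.14 for Foxo3, -0.52 to 0.02 for Foxp2, -0.20 to 0.01 for Foxp1, -0.39 to 0.64 for Foxh1 and -0.22 to 0.02 for Foxj3. Between Ki67-negative and Ki67-positive nests they ranged from -0.11 to 2.57 for Foxc2, -0.37 to 0.45 for Foxl1, -0.57 to 0.39 for Foxn1, -0.62 to 0.06 for Foxd2, -0.18 to 0.22 for Foxp4, -0.42 to 0.12 for Foxq1, -0.02 to 0.12 for Foxk2, -0.04 to 0.21 for Foxo1, -0.01 to 0.44 for Foxc1 and -0.11 to 0.40 for Foxi3.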
